A study of Mus musculus with 24 samples.

Results

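Histone and histone variant genes were followed in RNA from the CA1 subfield of the mouse hippocampus, with and without the histone acetyltransferase gene Kat2a in forebrain excitatory neurons. The genes were chosen by name: protein-coding genes of the Hist1 to Hist4 clusters, of the H2af and H3f3 families, and the linker histone genes H1f0 and H1fx, wherever they were listed in any of the 4 deposited comparison tables. This gave 20 of the 16355 genes in those tables, and all 20 stood in each of the 4 tables. They divide evenly into 10 clustered histone genes and 10 genes of replacement variants. The rule uses names and no measured value, but it was set with earlier results of these data known. The deposited tables themselves hold genes above a low mean count only.

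The mice were C57BL/6J animals aged 3 to 5 months. The cKO mice were Kat2a fl/fl; CamKII_alpha-cre+, so that Cre, which cuts the floxed gene, was driven by a promoter of excitatory forebrain neurons and other cells of the dissected tissue keep Kat2a. Control mice were Kat2a fl/fl, so both genotypes carry the floxed alleles. Only the cKO genotype names Cre, so loss of Kat2a and the presence of Cre cannot be told apart. Mice of each genotype were taken after 15 min of novelty exposure or naive, which gave 7 cKO novelty, 6 cKO naive, 5 control novelty and 6 control naive libraries. Whether each library is a mouse of its own is not in the labels, and p-values therefore describe the spread among the libraries, which may be in part technical.

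Chromatin wraps DNA around an octamer of the core histones H2A, H2B, H3 and H4, and linker histones of the H1 family bind where DNA enters and leaves. Most clustered histone genes serve DNA replication: their mRNAs end in a conserved stem-loop in place of a poly(A) tail, and the stem-loop binding protein SLBP takes them through processing, translation and decay. Replacement variants are made from ordinary polyadenylated mRNAs throughout the cell cycle, and in neurons, which no longer divide, they take over from the replication-dependent forms. Libraries here were made from polyadenylated RNA, so an mRNA that ends at the stem-loop is largely lost before sequencing.

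The stem-loop carries the distinction between the classes, so it is shown for the genes the results turn on. Capitals mark the 16 bases that matched the pattern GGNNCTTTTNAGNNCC, searched on the sense strand after the stop codon of GENCODE M21 transcripts (GRCm38), with 5 bases on either side.
Hist3h2a: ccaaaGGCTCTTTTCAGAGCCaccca
Hist3h2ba: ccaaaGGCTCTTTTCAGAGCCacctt
Hist1h1c: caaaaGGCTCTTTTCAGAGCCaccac
Hist2h4: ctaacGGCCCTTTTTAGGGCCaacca
H2afx: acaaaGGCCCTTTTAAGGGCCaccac
The pattern was found in 61 of 21901 protein-coding genes, or 0.279%, and 44 of the 61 were clustered histone genes. Among the 10 clustered genes measured here 8 hold it, and Hist1h2bc and Hist2h2be do not hold these letters. Among the 10 replacement variants only H2afx, whose product H2A.X is phosphorylated at DNA breaks, holds it.

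The clustered genes that were measured have annotated transcripts that run on past the stem-loop. The annotated sequence after it was 169 bases in Hist3h2ba, 330 in Hist1h4i, 377 in Hist2h3c2, 840 in Hist1h1c, 1257 in Hist2h4, 1643 in Hist3h2a, 1861 in Hist1h2be and 2010 in Hist1h2ac. It was 822 bases in H2afx. Of the 49 clustered genes in the count tables that are outside the comparison tables, 32 hold the stem-loop, and 21 of these have fewer than 100 bases after it (median 40). The mean count of those 49 genes was 6.88 reads per library at most (Hist1h1e, named after its values were seen). It was 14.7 to 305 reads in the 10 clustered genes measured. The authors listed genes for comparison only from a minimum mean of 10 reads, so this gap was fixed in advance by that choice. A long annotated end did not go with reads in every case, since 11 of the 49 have at least 150 bases after the stem-loop and a median of 1 read. Annotations are built in part from polyadenylated transcripts, so end length and reads are not independent.

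**Figure D1:**
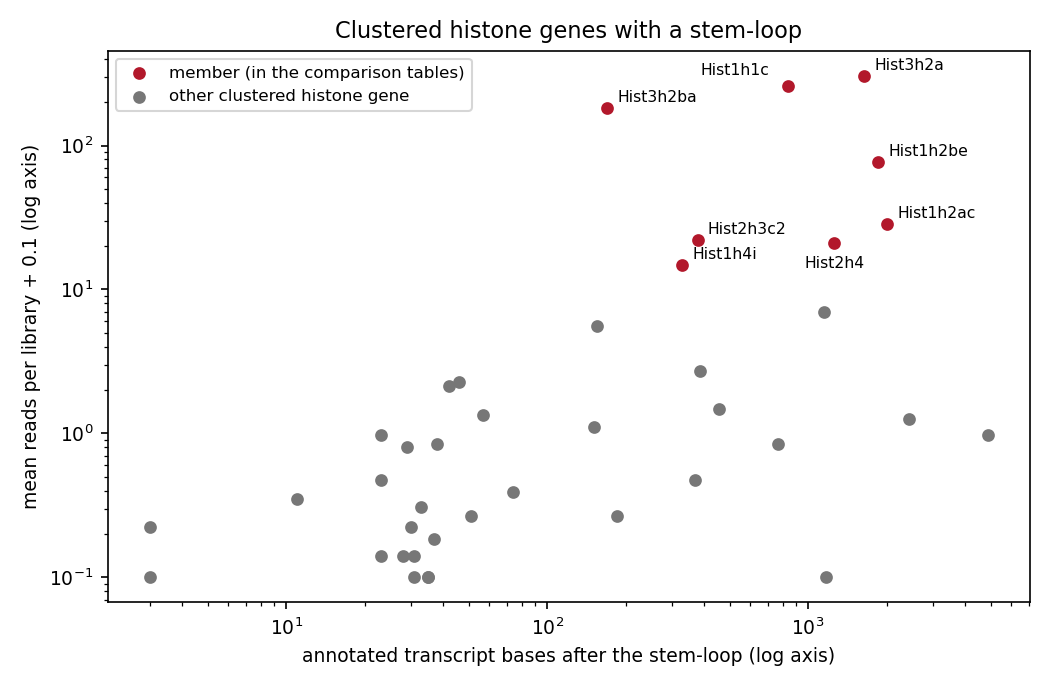
Mean reads per library plus 0.1 (vertical, log axis) against annotated transcript bases after the stem-loop (horizontal, log axis) for clustered histone genes that hold it. The 8 named genes that were measured sit at 169 to 2010 bases. Of 32 other genes 21 sit under 100 bases, and 11 at 150 or more still have few reads. Measured genes were listed only above a minimum mean count, so their greater height follows from that choice.

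The promoters of the pair of clustered genes that differed between genotypes are shown over the 120 bases before the RefSeq start site (GRCm38.p6). Capitals mark matches to any of 5 motifs searched on both strands: the CCAAT box, the TATA box TATAAA, the H1 box AAACACA, the octamer ATTTGCAT and the cAMP response element TGACGTCA.
Hist3h2a, chr11:58954565-58954684, plus strand: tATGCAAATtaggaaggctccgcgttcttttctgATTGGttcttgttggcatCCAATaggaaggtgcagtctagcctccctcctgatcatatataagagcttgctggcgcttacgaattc
Hist1h1c, chr13:23738687-23738806, plus strand: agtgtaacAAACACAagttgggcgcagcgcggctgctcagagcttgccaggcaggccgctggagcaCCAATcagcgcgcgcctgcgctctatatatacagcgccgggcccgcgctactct
Hist3h2a holds the octamer, on the minus strand, and CCAAT on both strands, and Hist1h1c holds the H1 box and CCAAT. Over 300-base windows, from 250 before to 50 after the start, 16 of the 20 genes had a sequence. CCAAT was in 6 of 7 clustered genes and 6 of 9 replacement variants, against 37.4% of 32851 windows of all genes. The octamer was in 3 of 7 clustered genes and 1 of 9 variants, H3f3b, against 1.74% of windows. The H1 box was in 1 of 7 and 1 of 9 genes, Hist1h1c and H3f3a, against 7.18%, and TATAAA was in 3 of 7 and 1 of 9, against 13.6%. No window of these genes held TGACGTCA, which 1.79% of all windows hold. A match of letters is a description of the sequence and shows no binding.

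The libraries held 10.7 to 35.8 M (mega) reads assigned to genes, with a median of 19 M. Kat2a checked the genotype labels: it measured 35.1 ± 2.31 CPM (reads scaled by library size and TMM factor; SD, n = 7) in cKO novelty and 36.1 ± 2.44 (n = 6) in cKO naive libraries, against 60.4 ± 3.46 (n = 5) in control novelty and 63.4 ± 4.29 (n = 6) in control naive libraries. No cKO library overlapped a control library, and the exact two-sided permutation p was 0.00126 after novelty and 0.00216 in naive mice, each the smallest its number of splits can give. Counts cover the whole gene and not the deleted part alone. The exposure was checked with 12 immediate early genes. After novelty 8 of them were higher at an edgeR adjusted p under 0.05 in cKO mice and 7 in controls. Of all genes 2.41% and 1.22% passed in either direction. The median log2 fold change of the 12 genes was 1.65 in cKO mice and 1.12 in controls. All 8 listed markers of CA1 pyramidal neurons were detected. Their summed levels were 5182 to 6003 CPM in cKO novelty and 4880 to 6344 CPM in cKO naive libraries. In control novelty libraries they were 5946 to 7479 CPM, and in control naive libraries 5921 to 6543 CPM.

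Levels between genes are compared per kilobase of exon, with all annotated exons of a gene counted. For some genes this length exceeds that of the coding transcript used for the stem-loop search. It was 6809 against 2046 bases in H2afy, 4446 against 2506 in Hist1h2be and 1776 against 1069 in H2afz. H3f3a and H3f3b differed in the same direction. A shorter length gives a higher level, so the order and ties that involve these genes rest on this choice. Levels per kilobase of transcript were not compared. The linker histone gene H1f0, whose product H1.0 gathers in nondividing cells, was the highest at 71.6 ± 4.42 CPM per kb (SD over 24 libraries), above 96.6% of 16542 genes. H3f3b, which encodes the H3 variant H3.3, followed at 54.5 ± 2.65 CPM per kb. These levels lay apart from each other and from the next, H2afv, an H2A.Z gene, at 17.9 ± 0.746. The highest clustered genes were the H2B genes Hist3h2ba at 15.0 ± 2.12 and Hist1h2bc at 13.2 ± 1.958, which did not differ from each other beyond their spread. At these exon lengths they also did not differ beyond their spread from the macroH2A gene H2afy at 12.2 ± 0.639. A middle group of H2afx, Hist1h1c, H2afy2, H2afj, Hist3h2a, H3f3a and H1fx ran in that order from 8.73 to 6.27 CPM per kb, each neighbour within the spread of the next. At these exon lengths Hist2h2be at 4.15 and the other H2A.Z gene, H2afz, at 4.14 did not differ beyond their spread. The lowest were Hist2h3c2, Hist1h4i, Hist1h2be, Hist2h4 and Hist1h2ac, at 1.10 to 0.580 CPM per kb, again with neighbours inside their spread.

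With the same exon lengths the median was 2.63 CPM per kb in clustered genes and 8.39 in replacement variants, against 4.78 in all genes tested. Coefficients of variation over the 24 libraries were 4.16% in H2afv, 4.86% in H3f3b, 5.23% in H2afy, 6.18% in H1f0, 8.31% in H3f3a, 8.87% in H2afy2, 10.1% in H2afx and 12.3% in H2afj. They were 13.9 to 40.6% in the clustered genes, a range that also holds H2afz at 14.5% and H1fx at 29.7%, a linker histone gene with 35 to 270 reads per library. Reads that match several places are not counted, which lowers genes with near-identical copies. Of all 50-base stretches of the transcript, 36.2% were unique to the gene in H2afz, 36.5% in Hist2h3c2, 68.5% in Hist3h2a, 70.8% in H3f3a, 91.5% in Hist1h1c and 91.6% in H3f3b. Stretches were compared with the annotated transcripts of other genes on both strands, and the genome was not searched. A stretch shared with a gene at the same locus also counts as not unique. Exons of Hist3h2a and H3f3a overlap such genes, so their shares do not measure copies elsewhere alone.

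**Figure D2:**
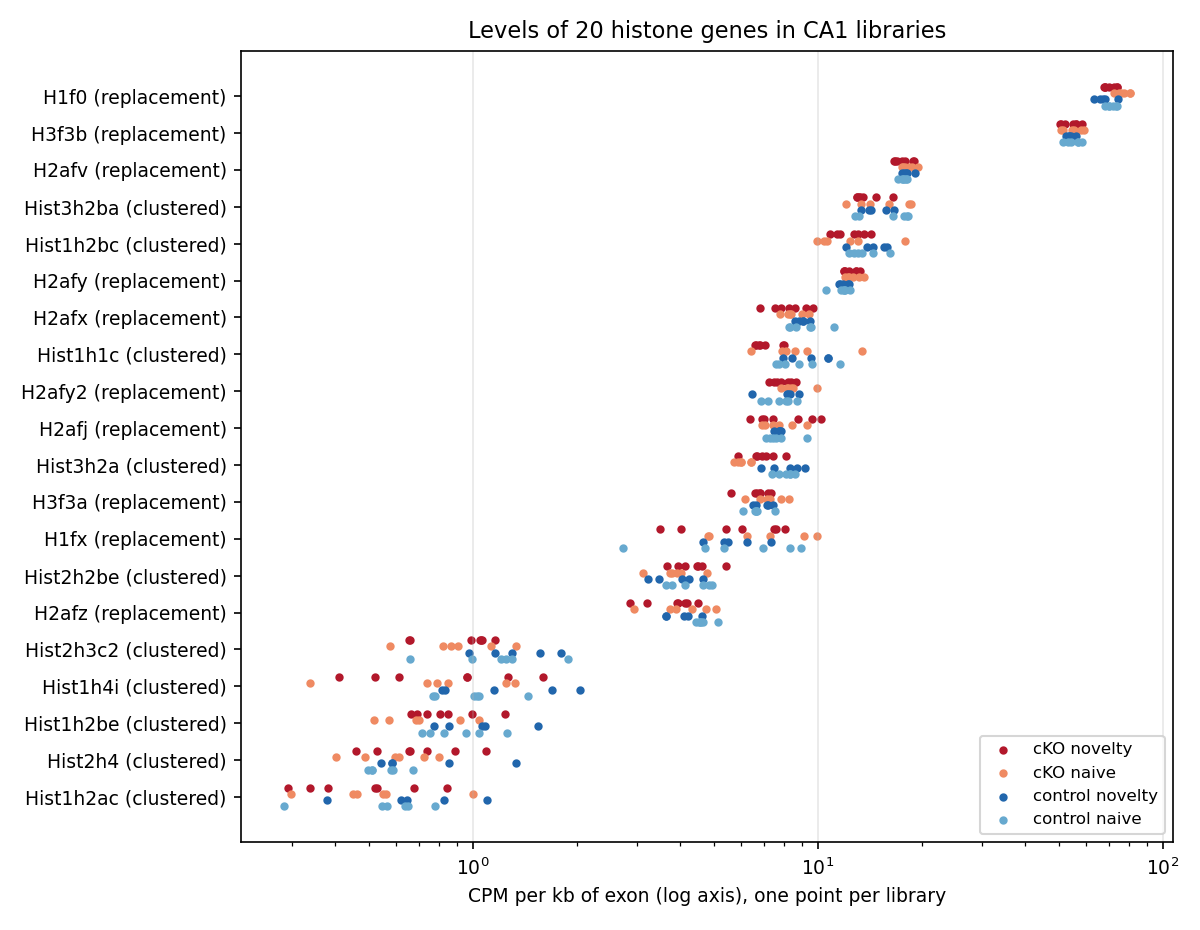
Level of each of the 20 genes in CPM per kb of all annotated exons (horizontal, log axis), 1 point per library, with the genes ordered by their mean and the groups in colour. H1f0 and H3f3b stand above all others, and the 5 lowest are all clustered genes.

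Levels of Hist3h2a, a core H2A gene of the small Hist3 cluster (ENSMUSG00000078851, GRCm38 chromosome 11, 58954685 to 58956674, plus strand), were lower in cKO mice. In naive mice the lowest, median and highest values were 12.3, 12.9 and 13.8 CPM in 6 cKO libraries, against 15.8, 17.6 and 18.4 CPM in control libraries. All 6 cKO naive libraries lay below all 6 control naive libraries. The means were 13.0 ± 0.607 and 17.3 ± 0.969 CPM (SD, n = 6 each). The cKO level was thus lower by a log2 fold change of -0.41 (SE 0.06) at an edgeR adjusted p of 0.00488. The exact two-sided permutation p was 0.00216, the smallest that 924 splits can give. Permutation tests were run only on Kat2a and on histone genes that passed a comparison, without adjustment. They use the same libraries and are no independent support for those genes. Hist3h2a was the only one of the 20 genes that passed an adjusted p of 0.05 in this comparison, where 0.801% of all genes passed, and the only one whose groups did not overlap, as in 1.93% of all genes. It passed in each of the 12 fits that left out 1 library, with adjusted p of 0.0069 to 0.0218. In bulk tissue a lower level can come from fewer cells that hold the RNA or from less RNA per cell, and these cannot be told apart.

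After novelty Hist3h2a measured 12.6, 14.8 and 17.3 CPM at its lowest, median and highest in 7 cKO libraries, against 19.8, 18.8, 17.8, 14.7 and 16.1 CPM in the 5 control libraries. The groups overlapped here. The log2 fold change was -0.23 (SE 0.08) and missed the threshold (edgeR adjusted p = 0.14; exact two-sided permutation p = 0.0354 over 792 splits). The difference between both genotype effects was 0.18 (SE 0.10, unadjusted p = 0.081, adjusted p = 1). Averaged over both exposures in all 24 libraries the genotype effect was -0.32 (SE 0.05, edgeR adjusted p = 0.000126), and it passed in all 24 fits that left out 1 library, with adjusted p of 4.51e-05 to 0.000484. The titles number the libraries within each group without saying what a number marks. Among libraries numbered 1 to 3 the difference in mean log2 CPM was -0.27 after novelty and -0.44 in naive mice, and among those numbered 4 and above it was -0.10 and -0.37.

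The authors' deposited table gives Hist3h2a a log2 fold change of -0.41 in naive mice (adjusted p = 8.18e-08) and of -0.23 after novelty (adjusted p = 0.0853). Exons of Hist3h2a overlap those of Trim17, a ubiquitin ligase gene, in GENCODE M21, and the kit does not mark strand. Trim17 itself had a genotype effect of -0.06 (SE 0.24, edgeR adjusted p = 0.919) after novelty and -0.18 (SE 0.12, edgeR adjusted p = 0.54) in naive mice. Hist3h2ba, the H2B gene next to Hist3h2a, ranged over 7.99 to 10.2 CPM in cKO novelty and 7.41 to 11.4 CPM in cKO naive libraries, against 8.18 to 10.2 CPM in control novelty and 7.85 to 11.2 CPM in control naive libraries. Its groups overlapped fully, and its averaged genotype effect was -0.08 (95% interval -0.22 to 0.07). The 95% interval of Hist3h2a was -0.42 to -0.22, and the intervals of these neighbours meet at -0.22. The difference between the genes was not tested.

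Hist1h1c, which encodes the linker histone H1.2 (ENSMUSG00000036181, GRCm38 chromosome 13, 23738807 to 23740366, plus strand), was lower in cKO mice after novelty. It measured 10.3, 10.6 and 12.5 CPM at its lowest, median and highest in 7 cKO novelty libraries, against 16.8, 13.1, 12.4, 14.9 and 16.7 CPM in the 5 control novelty libraries. The groups met only at the highest cKO libraries, which reached the lowest control library. The difference was -0.40 on the log2 scale (SE 0.09; adjusted p = 0.0177 in edgeR), with an exact two-sided permutation p of 0.00379. Hist1h1c was the only one of the 20 genes that passed here, where 4.53% of all genes passed, and without control novelty library 5 its adjusted p was 0.0584. Over all fits that left out 1 library the adjusted p ranged from 0.0102 to 0.0584. The authors' deposited table gives -0.39 with an adjusted p of 0.00129.

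In naive mice Hist1h1c did not show this difference. It measured 10.01, 12.99 and 20.99 CPM at its lowest, median and highest in cKO libraries, against 11.8, 13.2 and 18.1 CPM in control libraries, with a log2 fold change of 0.01 (SE 0.16, 95% interval -0.30 to 0.32). The difference between both genotype effects was -0.41 (SE 0.19, unadjusted p = 0.039), and it failed the correction over all genes (adjusted p = 1). Without cKO naive library 5 it was -0.26. Among libraries numbered 1 to 3 the genotype difference was -0.39 after novelty and -0.23 in naive mice, and among those numbered 4 and above it was -0.46 and 0.20. The highest naive value, 20.99 CPM, came from cKO naive library 5, and without that library the averaged genotype effect of Hist1h1c was -0.27 (edgeR adjusted p = 0.0218), against -0.20 (adjusted p = 0.187) with it.

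**Figure D3:**
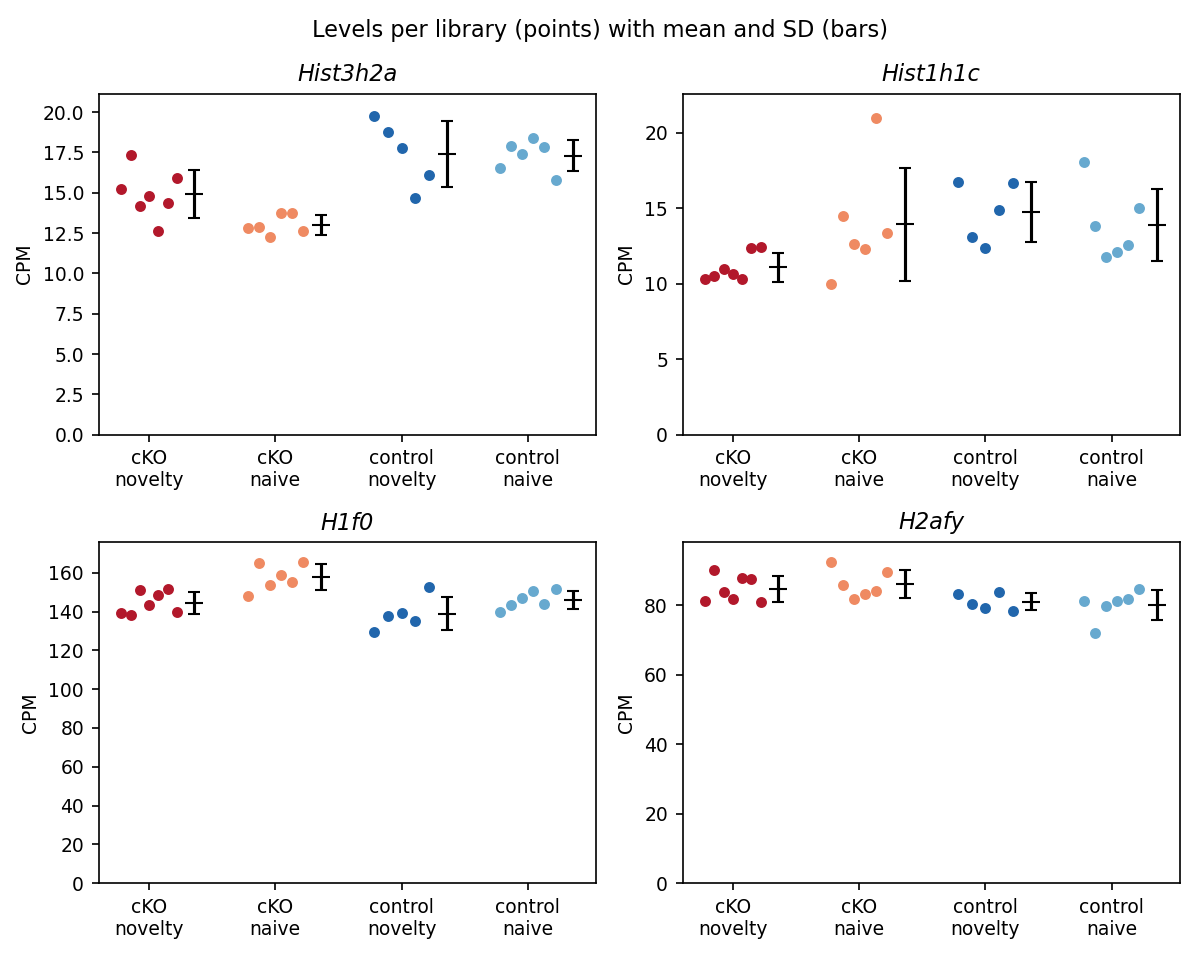
CPM per library (points) with the mean and SD of each group (bars) for the 4 genes that passed any comparison, in cKO novelty, cKO naive, control novelty and control naive libraries. Hist3h2a separates naive cKO from naive control libraries, Hist1h1c is lowest and tightest in cKO novelty libraries, and H1f0 is highest in cKO naive libraries.

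The other clustered genes did not pass in either genotype comparison, but most of their estimates were below 0. Of the 10 clustered genes 9 were below 0 after novelty and 8 in naive mice, where 47.35% and 48.87% of all genes tested were. Their medians were -0.27 and -0.14 on the log2 scale, against 0.01 and 0.00 over all genes tested. The median after novelty was -0.17 without control novelty library 1. The naive median was -0.09 without cKO naive library 2, -0.07 without cKO naive library 3 and -0.27 without cKO naive library 5. Among libraries numbered 1 to 3, 8 of 10 clustered genes were below 0 after novelty (median -0.33) and 9 of 10 in naive mice (median -0.45). Among those numbered 4 and above, 9 of 10 were below 0 after novelty (median -0.14) and 6 of 10 in naive mice (median -0.02). The share of all genes below 0 was not computed within these numbers. Both comparisons share no library, and 7 of the 10 were below 0 in both, against 2 of 10 replacement variants and 32.4% of 16095 genes. Within a comparison the genes share libraries and can move together. For example, cKO naive library 5 was the highest of its group for Hist1h1c, Hist1h2ac, Hist1h2bc, Hist1h2be, Hist2h3c2 and Hist3h2ba. It was not the highest for Hist1h4i, Hist2h2be, Hist2h4 or Hist3h2a. Among replacement variants that library was the highest for H1fx, H2afj, H2afz, H3f3a and H3f3b, and not for the others. The sign counts are thus not of independent genes and were given no test. The largest clustered estimates by size after novelty were Hist1h2ac at -0.52 (SE 0.27), Hist2h3c2, an H3 gene, at -0.49 (SE 0.20) and Hist1h4i, an H4 gene, at -0.45 (SE 0.32). These genes had 4 to 71 reads per library between them. Hist1h2bc, with 177 reads or more, was at -0.20 (SE 0.08) after novelty and -0.14 (SE 0.13) in naive mice. Its values were 12.6 to 16.5 CPM in cKO novelty and 11.5 to 20.7 CPM in cKO naive libraries, against 14.0 to 18.3 CPM in control novelty and 14.2 to 18.7 CPM in control naive libraries, so the groups overlapped. Hist1h2be, which overlaps exons of Hist1h1e, was at -0.32 (SE 0.18) and -0.31 (SE 0.19). Hist2h2be was the exception after novelty, at 0.16 (SE 0.11), and stood at -0.14 (SE 0.11) in naive mice.

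The summed level of the 10 clustered genes showed the same order. It was 63.8, 66.8 and 77.9 CPM at its lowest, median and highest in cKO novelty libraries and 60.7, 65.9 and 87.1 CPM in cKO naive libraries. In control novelty libraries it was 87.6, 78.8, 75.4, 73.6 and 76.0 CPM, and in control naive libraries 71.3, 76.1 and 84.9 CPM. All cKO libraries lay below all control libraries except cKO novelty library 2 at 71.33, cKO novelty library 6 at 77.9 and cKO naive library 5 at 87.1 CPM, against a lowest control value of 71.28 CPM. The summed level of the 10 replacement variants was 468 to 515 CPM in cKO novelty and 503 to 542 CPM in cKO naive libraries, against 482 to 512 CPM in control novelty and 480 to 528 CPM in control naive libraries. The clustered share of the summed level of these clustered and replacement genes was 12.02 ± 0.629% and 11.5 ± 1.24% in cKO novelty and naive libraries. It was 13.7 ± 1.02% and 13.3 ± 0.997% in control novelty and naive libraries. The sums rest on chosen genes and were given no test.

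**Figure D4:**
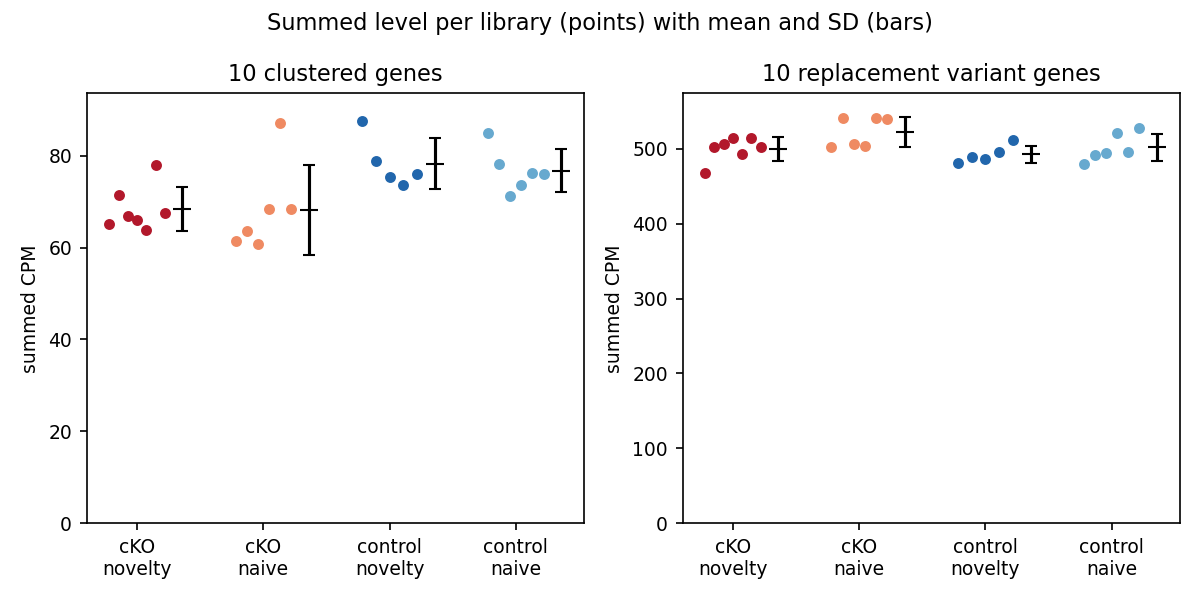
Summed CPM of the 10 clustered genes (left) and of the 10 replacement variants (right) per library (points), with mean and SD of each group (bars). The cKO libraries lie mostly below the controls on the left, with cKO naive library 5 at 87.1 CPM as the highest of its group, and the groups overlap on the right.

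Several measures of tissue and library moved with genotype as well. Reads that aligned to more than 1 place made up 14.82 to 15.74% in cKO novelty and 15.02 to 16.17% in cKO naive libraries, against 15.54 to 17.18% in control novelty and 15.8 to 17.97% in control naive libraries. In the averaged genotype effect 4 of 6 oligodendrocyte markers, 3 of 6 interneuron markers, 2 of 6 dentate granule cell markers, 2 of 8 CA1 pyramidal markers and 1 of 7 CA3 and CA2 markers were lower, where 6.32% of all genes were. None passed of 6 astrocyte, 4 oligodendrocyte precursor, 6 microglia, 5 endothelial, 5 choroid plexus and ependyma and 4 neighbouring tissue markers by edgeR. Summed oligodendrocyte markers were 2619 to 5044 CPM in cKO novelty and 3376 to 4295 CPM in cKO naive libraries, against 3719 to 4623 CPM in control novelty and 3949 to 4383 CPM in control naive libraries. Summed interneuron markers were 856 to 1005 CPM and 820 to 936 CPM in cKO novelty and naive libraries, against 929 to 1053 CPM and 913 to 1074 CPM in control novelty and naive libraries. Summed dentate markers were 62.7 to 212 CPM in cKO and 97.8 to 260 CPM in control libraries. No marker of these lists was at 0 in all libraries. Their part in the lower clustered levels was not tested.

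The replacement variants that passed a genotype comparison were higher in cKO mice. In the genotype effect averaged over exposures 3 of the 20 genes passed, Hist3h2a lower and H1f0 and H2afy higher, where 12% of all genes passed, 5.72% higher and 6.32% lower, so the count of 20 is near the background. H1f0 was 0.09 higher on the log2 scale in cKO mice (SE 0.03, edgeR adjusted p = 0.037). Its lowest, median and highest values were 139, 143 and 152 CPM in cKO novelty and 148, 157 and 166 CPM in cKO naive libraries. They were 130, 138, 140, 135 and 153 CPM in the 5 control novelty libraries, and 140, 146 and 152 CPM at the lowest, median and highest of control naive libraries. The genotypes overlapped at both exposures. The H1f0 call held in 13 of 24 fits that left out 1 library, with adjusted p between 0.00997 and 0.0765, and it was lost without control naive library 1 or 5, control novelty library 1, 2, 3 or 4, cKO naive library 2, 4 or 6, or cKO novelty library 5 or 6.

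H2afy encodes macroH2A1, an H2A variant with a large globular domain, and was also 0.09 higher in cKO mice (SE 0.03, edgeR adjusted p = 0.041). It measured 80.9, 83.8 and 90.2 CPM at its lowest, median and highest in cKO novelty and 81.9, 85.0 and 92.6 CPM in cKO naive libraries. It measured 83.3, 80.5, 79.3, 83.8 and 78.3 CPM in control novelty libraries, and 72.1, 81.3 and 84.6 CPM at the lowest, median and highest of control naive libraries. The groups overlapped. This call too held in 13 of 24 fits, with adjusted p between 0.0324 and 0.0779, and it was lost without control naive library 2 or 3, control novelty library 2, 3 or 5, cKO naive library 1, 2 or 6, or cKO novelty library 2, 5 or 6. The other macroH2A gene, H2afy2, was at 0.06 (SE 0.05), with exons that overlap Aifm2.

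Under the main settings the other variants passed no genotype comparison. Their averaged estimates lay furthest below 0 in H2afz and H2afx. H3f3b was at 161 ± 9.09 and 163 ± 10.1 CPM in cKO novelty and naive libraries, against 161 ± 3.76 and 164 ± 8.09 CPM in control novelty and naive libraries, an averaged effect of 0.00 with a 95% interval of -0.06 to 0.06 on the log2 scale. H3f3a, which encodes the same H3.3 protein, was at 0.03 (95% interval -0.06 to 0.12). H3f3b gave 85.8 to 88.4% of the reads of this gene pair in cKO and 86.5 to 89.1% in control libraries. This share was not corrected for exon length or for unique sequence, which was 91.6% in H3f3b and 70.8% in H3f3a. Of the H2A.Z genes, H2afv was at 0.01 (95% interval -0.05 to 0.06) and H2afz at -0.13 (95% interval -0.28 to 0.03). H2afx was at -0.12 (95% interval -0.23 to -0.01, edgeR adjusted p = 0.167), H2afj at 0.04 (SE 0.07) and H1fx at 0.12 (SE 0.17). Sequences named H3f3c, H3f3a-ps1 and H3f3a-ps2, which the deposited tables class as pseudogenes, had averaged effects of 0.00, -0.10 and -0.06, none of which passed.

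**Figure D5:**
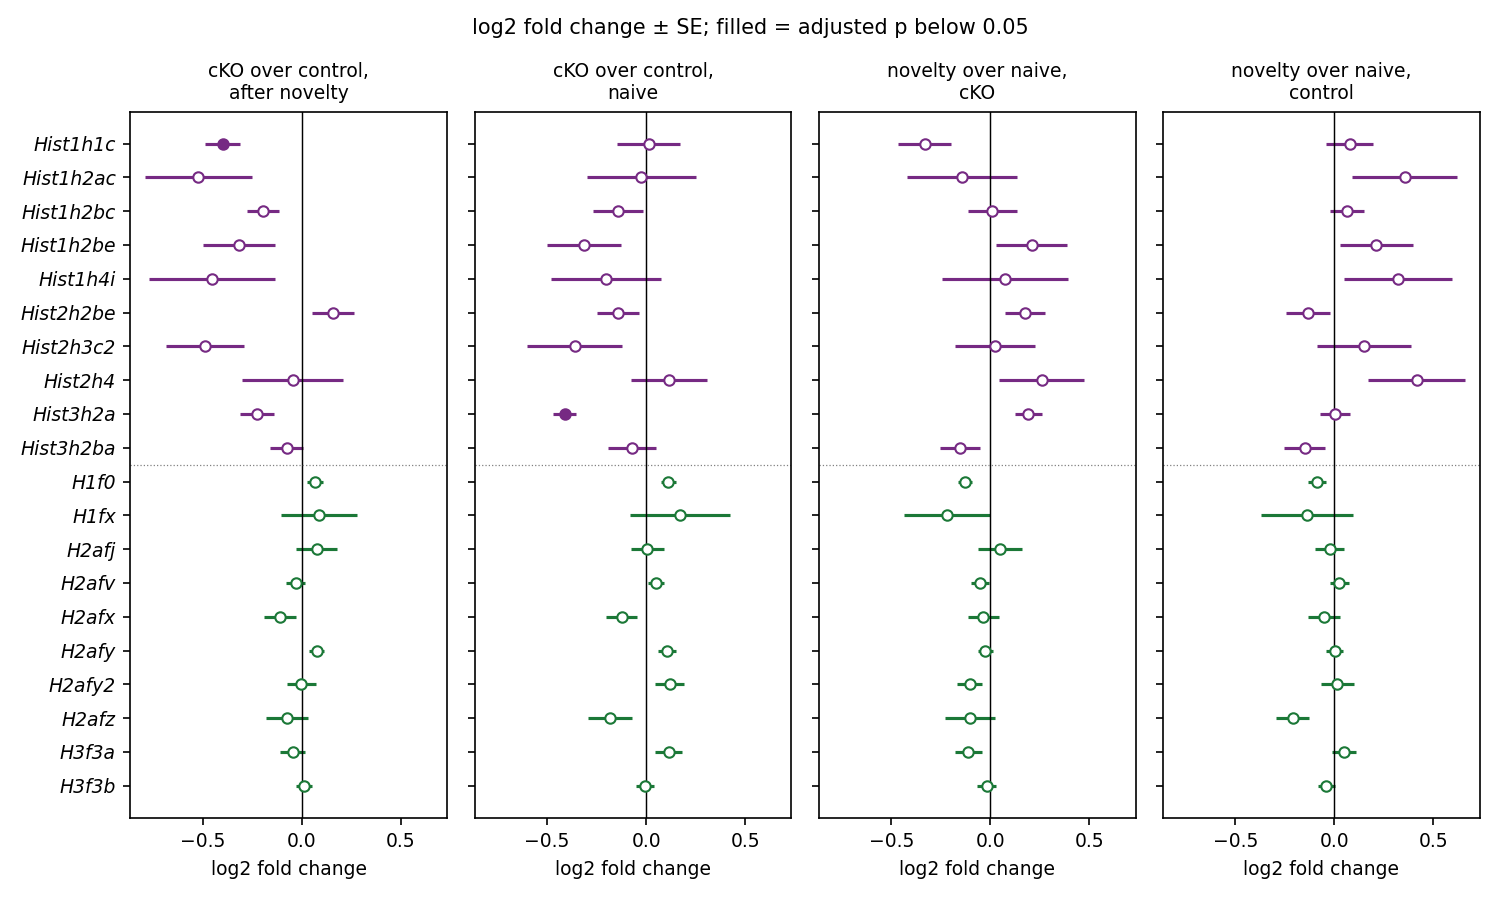
log2 fold change ± SE (horizontal) of the 20 genes, clustered genes above the dotted line and replacement variants below it, for cKO over control after novelty and in naive mice and for novelty over naive in cKO and control mice. Filled points passed an adjusted p of 0.05. Hist1h1c and Hist3h2a are filled in 1 panel each, and most clustered genes lie left of 0 in the genotype panels.

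After 15 min of novelty the counts of the 20 genes that passed were near those of all genes. None of the 20 genes passed in cKO mice, where 2.41% of all genes passed, and none passed in control mice, where 1.22% did. By unadjusted p under 0.05 in edgeR, 3 genes were below it in cKO mice (13.9% of all genes) and 1 in controls (11% of all genes), and DESeq2 called H1f0 in cKO mice. Averaged over genotypes H1f0 alone passed, where 6.55% of all genes passed. It was 0.11 lower on the log2 scale after novelty (log2 fold change -0.11, SE 0.03, edgeR adjusted p = 0.0152), and it passed in all 24 fits that left out 1 library, with adjusted p of 0.00315 to 0.04. Taken by genotype the effect was -0.13 in cKO mice (SE 0.04, edgeR adjusted p = 0.0734, exact two-sided permutation p = 0.00583) and -0.09 in controls (SE 0.04, edgeR adjusted p = 0.506, exact two-sided permutation p = 0.0974). The difference between these effects was -0.05 (SE 0.05, unadjusted p = 0.408). The means were 145 ± 5.70 CPM in cKO novelty and 158 ± 6.83 CPM in cKO naive libraries, and 139 ± 8.45 CPM in control novelty and 146 ± 4.57 CPM in control naive libraries. In cKO mice the call passed with upper-quartile scaling (adjusted p = 0.0394), in DESeq2 (0.0208) and without cKO naive library 1 (0.0421), and the authors' deposited table gives -0.13 with an adjusted p of 0.0137.

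Among the clustered genes, Hist1h1c was at -0.33 after novelty in cKO mice (SE 0.13, edgeR adjusted p = 0.255), with 10.3 to 12.5 CPM in novelty and 10.01 to 20.99 CPM in naive libraries. Without cKO naive library 5 it was at -0.18. Hist3h2a was at 0.19 in cKO mice (SE 0.07, edgeR adjusted p = 0.181) and at 0.00 in controls (SE 0.08). Neither passed. Hist2h4, an H4 gene with 10 to 33 reads, was at 0.26 (SE 0.22) in cKO mice and 0.42 (SE 0.25) in controls. In controls the smallest p was that of H2afz, which encodes an H2A.Z histone found at promoters and enhancers. It measured 6.44, 8.18, 7.495, 7.26 and 6.46 CPM in the 5 novelty libraries, against 7.89, 8.11 and 9.14 CPM at the lowest, median and highest of 6 naive libraries, which differed by -0.21 on the log2 scale (SE 0.09; adjusted p = 0.349 in edgeR). Of the replacement variants 9 of 10 were below 0 in cKO mice and 6 of 10 in controls, where 53.9% and 56.5% of all genes were, with medians of -0.08 and -0.03, against -0.01 over all genes in both comparisons. Of the clustered genes 7 of 10 were above 0 in cKO mice and 8 of 10 in controls, with medians of 0.05 and 0.11, and 6 of 10 were above 0 in both, against 25.7% of 16023 genes. With 1 library left out the clustered median in cKO mice ran from -0.05 (without cKO naive library 3) to 0.15 (without cKO naive library 5), and it was -0.01 without cKO novelty library 6. In controls it ran from 0.04 (without control novelty library 1) to 0.22 (without control naive library 1). The replacement median ran from -0.10 to -0.04 in cKO mice and from -0.04 to 0.00 in controls. The interaction of genotype with novelty passed for none of the 20 genes and for 0% of all genes in edgeR, and unadjusted p was under 0.05 for 1 of the 20, Hist1h1c, and for 4.11% of all genes. DESeq2 called no gene for it either.

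The machinery that handles histones was read from lists of genes. Of 23 genes of histone chaperones and deposition 22 were tested after novelty, and 1 was higher and 1 lower in cKO mice, where 4.53% of all genes passed. Hira, the scaffold of the complex that deposits H3.3, measured 69.7, 71.8 and 72.9 CPM at its lowest, median and highest in 7 cKO novelty libraries and 75.2 to 82.5 CPM in 5 control novelty libraries, so the groups did not overlap, as in 3.24% of all genes. It differed by -0.15 on the log2 scale (SE 0.04; adjusted p = 0.023 in edgeR). Cabin1, another member of that complex, was at 0.18 (SE 0.05, edgeR adjusted p = 0.0348), with 86.2 to 98.3 CPM in cKO and 74.9 to 90.9 CPM in control libraries. In the averaged genotype effect the chaperone genes Npm1 at -0.10 (SE 0.03) and Nap1l1 at -0.12 (SE 0.04) were lower beside Hira at -0.12 (SE 0.02), and Cabin1 at 0.17 (SE 0.03) was higher, which is 4 of 23, where 12% of all genes passed. In naive mice none of the 22 tested passed.

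Of 19 genes of H2A.Z exchange complexes, Vps72, whose product binds H2A.Z, at 0.14 (SE 0.04) and Epc2 at 0.14 (SE 0.03) were higher in the averaged genotype effect, a count near the 12% of all genes that passed. None passed in either pairwise genotype comparison. Of 19 genes of histone mRNA processing and decay, Slbp, which encodes the stem-loop binding protein, was the only gene to pass in the averaged genotype effect, higher at 0.15 (SE 0.05, edgeR adjusted p = 0.0339), where 12% of all genes passed. It measured 20.1 ± 1.39 and 19.2 ± 1.61 CPM in cKO novelty and naive libraries, against 17.5 ± 1.01 and 17.98 ± 1.48 CPM in control novelty and naive libraries. After novelty Lsm10, a subunit of the U7 particle that cuts histone pre-mRNAs at their ends, was the only one of the 19 to pass in controls, lower at -0.35 (SE 0.08, edgeR adjusted p = 0.0344), where 1.22% of all genes passed. It measured 6.14 to 7.12 CPM in 5 control novelty and 7.85 to 8.72 CPM in 6 control naive libraries, without overlap, as in 2.48% of all genes. Averaged over genotypes Lsm10 was lower at -0.26 (SE 0.05), and Upf1 at 0.13 (SE 0.04) and Ncbp1 at 0.11 (SE 0.03) were higher, 3 of 19 where 6.55% of all genes passed. The chaperone gene Ubn1 was higher at 0.15 (SE 0.03), 1 of 23. Of 24 genes of S phase and proliferation 20 or 21 were tested per comparison, and none passed in any of the 7 comparisons by edgeR. Their median genotype effects were 0.05 after novelty and 0.10 in naive mice.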

How the data were processed

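Polyadenylated RNA of dissected CA1 was sequenced in 24 libraries made with an unstranded TruSeq kit, per the labels. The labels do not say which library was paired-end or single-end. The part of this in the share of reads that aligned to more than 1 place was not tested. The authors deposited 1 table of raw counts per library, whole reads per Ensembl gene, and 4 comparison tables. Per the file headers these give a mean normalised count (a signal), a log2 fold change with SE, a p-value and an adjusted p. The tools named in the submitters' processing notes, with no roles, are HTSeq, DESeq2 and STAR 2.3.0, with the build GRCm38.p2. Reads outside genes (7.58 to 10.4% of a table) and the other summary entries were left out. The 95% intervals of log2 fold changes use normal quantiles and the SE.

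Counts were tested with edgeR 4.0.16 in R 4.3.3 (robust quasi-likelihood F test, TMM, filterByExpr at a minimum count of 10, Benjamini-Hochberg adjustment over all genes, threshold 0.05). Pairwise comparisons used their own groups, and a fit over 24 libraries gave averaged effects and the interaction. All 20 genes passed the filter in each fit. The scripts were tested on simulated counts. Sequences came from GENCODE M21 and RefSeq, where all 20 genes matched by symbol or synonym. Genes named are Kat2a, all replacement variants, the 8 highest clustered genes, genes that passed and the 3 smallest p per comparison. From lists, those that passed are named, except markers, which are given as counts. The genes and lists were chosen with earlier results of these data known. Alternatives were other scalings, DESeq2 1.42.0, no filter, a replicate block and leaving out each library. Library numbers are not known to pair the samples. Of 22 same-numbered pairs 3 correlated above 0.1, at 0.245 to 0.279, each best with its own number. Weak correlation in the rest cannot exclude a pairing.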

Additional observations from a re-analysis of the deposited data

Results flagged for a closer look

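In 80 looks at a gene in a group, 7 had a highest or lowest library that stood apart from the rest of its group by the gap to the nearest other library over the group's range. Chance alone gives about 1 in 20. Hist1h2ac was at 2.49 CPM in cKO naive library 5, with the next at 1.39 CPM, and that library also had the highest clustered sum of its group. H2afj was at 13.7 CPM in control novelty library 2, with the next at 14.2 CPM, in a group whose whole range is narrow. H2afj was at 17.0 CPM in control naive library 4, with the next at 14.3 CPM, and H2afz in the same library was at 9.14 CPM, with the next at 8.24 CPM. H2afy2 was at 21.6 CPM in cKO naive library 3, with the next at 18.4 CPM, and at 14.0 CPM in control novelty library 1, with the next at 17.7 CPM. H3f3a was at 19.7 CPM in cKO novelty library 1, with the next at 23.1 CPM.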

How the results depend on the processing

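Hist3h2a kept its call in naive mice and in the averaged genotype effect under every alternative run, and Hist1h1c after novelty under all but the one without control novelty library 5, which left 0 of the 20 genes passing (0 to 1 over the fits without 1 library). For novelty in cKO mice upper-quartile scaling and DESeq2 each passed 1 gene, H1f0, and leaving out 1 library passed 0 to 1. For the averaged genotype effect 1 gene passed with no filter on low counts, and 1 to 6 passed with 1 library left out. The 6 came without cKO naive library 5: Hist3h2a, H1f0, H2afy, Hist1h1c, Hist1h2bc (-0.24, adjusted p = 0.0151) and Hist2h3c2 (-0.49, adjusted p = 0.0441). With the replicate block Hist3h2a, H1f0 and H2afx (-0.15, adjusted p = 0.0354) passed there, H2afy did not (adjusted p = 0.0509), and no other count of the 20 genes changed; the numbers are not known to pair the libraries. Without the highest gene of each class the clustered share was 13.6, 13.3, 15.5 and 15.0% in cKO novelty, cKO naive, control novelty and control naive libraries. Of all genes that passed, 67.04% were higher under upper-quartile scaling for novelty in cKO mice (79.9% under TMM), 53.9% for novelty averaged (67.5%) and 58.5% for genotype averaged (47.5%). The cause of these changes was not tested. Clustered genes under about 30 reads, among them Hist2h4 and Hist1h4i, have SEs of 0.16 to 0.32 in the pairwise and averaged comparisons and up to 0.44 in the interaction, so small changes in them were not detectable at this depth.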
